A study of Mus musculus with 43 samples.

Results

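The NRF2 inducer CDDO-2P-Im, which belongs to the oleanane triterpenoids, was compared with vehicle in the brains of 11-month-old APP/TAU mice. The comparison comprised 10 of the 43 RNA-seq libraries of the series: 5 from mice given CDDO-2P-Im at 30 µmol per kg body weight by mouth, 3 times per week for 2 weeks, and 5 from mice given the vehicle of DMSO, Cremophor EL and PBS. Both groups carried the mutant transgenes that the labels write as APPV717I::TAUP301L. A further 5 libraries from 11-month-old vehicle-treated Wild-type mice were deposited in the same table and entered the fit. The labels give neither the promoters that drive the transgenes, nor the brain region, the sex of the mice, or whether mice were pooled. The 24 treated and vehicle libraries of 6-month-old AppNLGF mice, which carry a mutated App gene at its own locus, were used to test whether an effect differed between the models. The treated AppNLGF mice received the compound at 30 µmol per kg, 3 times per week for 4 weeks. The 4 libraries of 6-month-old vehicle-treated Wild-type mice from that cohort entered the same fit.

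NRF2 (gene Nfe2l2) is held at a low level by KEAP1, a sensor protein that delivers it for degradation. Electrophilic triterpenoids modify cysteines of KEAP1, after which NRF2 accumulates, pairs with small MAF proteins and binds antioxidant response elements. Its known targets supply and use glutathione, reduce quinones, regenerate thioredoxin, store iron, break down haem and make NADPH. In the brain these genes are most active in astrocytes and in cells of the vessels and meninges.

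Ftl1 and Gstm1, both long known as NRF2 targets, rose with treatment after the libraries were put on a common scale. Ftl1 encodes the light chain of the iron store ferritin, and Gstm1 a glutathione transferase. Nqo1, the quinone reductase that is most often used as an NRF2 readout, had a larger fold than Ftl1 but did not pass the test. Immediate early genes, which neurons and glia transcribe within minutes of stimulation, had lower levels in treated than in vehicle libraries, with no member passing the test. App, Mapt, Trem2 and Gfap did not pass the test either.

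The vehicle libraries were not alike. A single unnamed RNA (gene identifier ENSMUSG00000118866) took on average 27.2% of the deposited TPM (transcript abundance corrected for length, with the same total in every library) over the table. Its share was 21.2%, 15.8%, 28.5%, 15.5% and 29.1% in vehicle libraries 1 to 5, and lay between 27.9% and 31.2% in the treated libraries. The treated mean was 29.5 ± 1.54% (SD, n = 5) and the vehicle mean 22.0 ± 6.59% (n = 5), against 30.1 ± 3.72% in Wild-type libraries. The difference of 7.54 percentage points gave p = 0.0635 in a two-sided exact permutation test over 252 splits, whose smallest possible p is 0.00794 (adjusted over 4 library measures, p = 0.0714). The total is fixed, so a larger share of this RNA leaves less for all other genes. The share of mitochondrially encoded genes was lower in treated libraries, and that of rows with a gene identifier was higher (88.9 ± 0.745% against 86.7 ± 1.82%). The part of each in the shift of deposited values was not tested. The median log2 fold of all tested genes, treated minus vehicle, was -0.19 in deposited TPM. Each library was therefore also divided by its median ratio to the average library, which brought that median to 0.0022. All gene values below are on this scale, called scaled TPM, and each fold is a difference of means of log2(scaled TPM + 1) with its standard error. The pseudocount makes the folds of genes at a few TPM smaller than the ratio of their means.

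**Figure D1:**
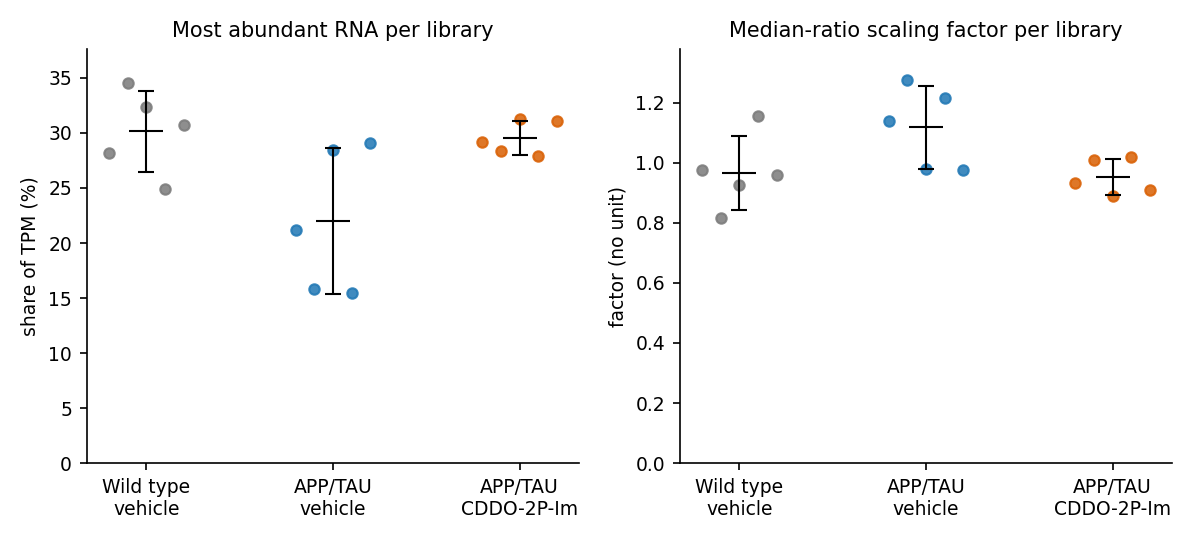
Share of the most abundant RNA as a percentage of TPM (left) and the median-ratio scaling factor (right, no unit) for the 15 libraries of the APP/TAU table; points are libraries, the bar is the mean and the whiskers are 1 SD. Vehicle libraries 1, 2 and 4 lie below every treated library in the left panel, and vehicle libraries 3 and 5 lie among the treated ones.

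The labels were checked on the transgenes. App in the vehicle libraries was 851, 881, 910.4, 758 and 890.3 scaled TPM, in the treated libraries 878, 930.2, 888, 864 and 1202, and in the Wild-type libraries 474, 467, 490.3, 496 and 447. No APP/TAU value overlapped a Wild-type value. The tau gene Mapt was at 158 ± 12.2 scaled TPM (SD, n = 5) in vehicle, 151 ± 20.0 in treated and 128 ± 7.58 in Wild-type libraries. Thy1, a neuronal surface protein whose promoter is often used in brain transgenes, was at 653 ± 34.8, 699 ± 128 and 259 ± 18.7 scaled TPM in the same order. All 20 synaptic and pan-neuronal genes, all 20 astrocyte genes and all 18 myelin genes of the marker lists were above the filter on low values, as brain tissue requires. Xist was at or under 0.156 TPM in all 15 libraries.

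Of 17592 genes with a mean of at least 1 TPM over the table, 0 passed an adjusted p of 0.05 in deposited TPM (0.0% called) and 2 did after scaling, both higher (0.0114% called). The tests were limma with a trend and Benjamini-Hochberg adjustment over all tested genes. At an unadjusted p below 0.05, deposited TPM gave 77 higher genes (0.438%) and 4642 lower genes (26.4%), and scaled TPM gave 820 higher (4.66%) and 736 lower (4.18%). The split of unadjusted calls thus depended on the scaling. With predicted, clone and unnamed genes left out, the 5 smallest p in deposited TPM all belonged to lower values. These were of Spout1, Sltm, Nasp, Tmem267 and the immediate early gene Egr2, each with a limma adjusted p of 0.167. Spout1, a putative methyltransferase, was at 5.79, 4.85, 5.23, 6.81 and 7.00 scaled TPM in vehicle and 2.17, 1.78, 5.26, 2.70 and 3.54 in treated libraries, and only treated library 3 lay within the vehicle range (fold -0.81 ± 0.22, deposited -0.999). Sltm, a relative of the scaffold attachment factors, was at 12.5, 13.6, 13.1, 11.9 and 13.1 scaled TPM in vehicle and 10.3, 10.2, 8.60, 10.3 and 11.2 in treated libraries, without overlap (fold -0.32 ± 0.072, deposited -0.53). The scaled folds were -0.27 ± 0.094 for the histone chaperone gene Nasp and -0.41 ± 0.14 for Tmem267, whose groups overlapped. Nothing in the labels says whether the 5 libraries of a group came from separate mice, so p-values measure the spread between libraries.

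Ftl1 (chr7:45457944-45459884, minus strand, GRCm38) was at 214, 196, 217, 187 and 208 scaled TPM in vehicle libraries 1 to 5 and at 264, 278, 277, 260.3 and 282 in treated libraries 1 to 5. Every treated library was above every vehicle library, and also above every Wild-type library, which ran from 220.5 to 238. The fold was 0.41 ± 0.042 (SE) on the log2 scale, with limma's adjusted p = 0.00117. In deposited TPM the fold was 0.19, with an adjusted p of 0.180. Against only vehicle libraries 3 and 5, whose share of the abundant RNA was like that of the treated libraries, the fold was 0.36 and the limma adjusted p 0.0354. Ferritin light chain has processed pseudogenes with near-identical sequence, and reads of the parent and its copies can be exchanged. The 2 copies in the table were scarce: Ftl1-ps1 was at 3.86 ± 1.67 scaled TPM in vehicle and 4.16 ± 1.43 in treated libraries, and Ftl2-ps at 2.49 ± 1.04 and 2.25 ± 0.532.

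Gstm1 (chr3:108012255-108017973, minus strand, GRCm38), which joins glutathione to electrophiles and is abundant in astrocytes, was at 127, 119.6, 124, 120.5 and 126 scaled TPM in the vehicle libraries. The treated libraries held it at 182, 206, 176, 194 and 210.3. The lowest treated library was above the highest vehicle library and above the highest Wild-type library (174). Its fold was 0.64 ± 0.068 (SE), with limma's adjusted p = 0.00117. The call of Gstm1 was lost against vehicle libraries 3 and 5 alone, with a fold of 0.62 and an adjusted p of 0.191. It was also lost with the share of the abundant RNA as a covariate, where the fold was 0.61 and the adjusted p 0.0648. Gstm genes lie in a tight cluster and are similar in sequence, so their values may share reads.

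**Figure D2:**
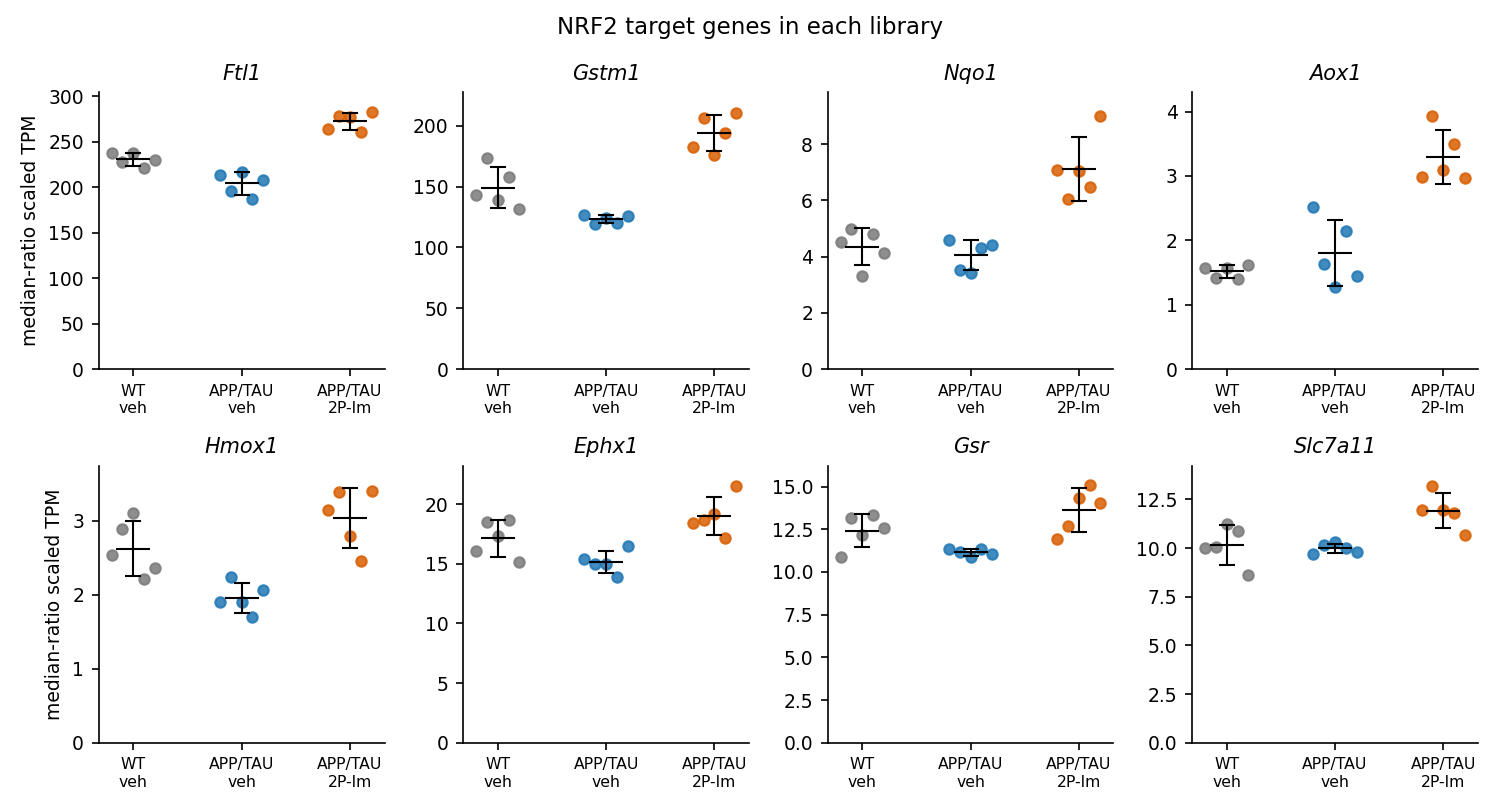
Scaled TPM (vertical axes, from 0) of 8 NRF2 target genes by group (grey, Wild-type; blue, vehicle-treated APP/TAU; orange, CDDO-2P-Im-treated APP/TAU), 5 points each, with the mean and 1 SD. In each panel every treated library lies above every APP/TAU vehicle library. The 8 genes are taken from the 11 of 54 tested NRF2 targets for which this was so, against 0.841% of all tested genes. Ftl1 and Gstm1 are the genes that passed the test.

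Of 65 NRF2 target genes sorted into 6 roles, 54 passed the filter on low values. At an unadjusted p below 0.05, 20 of the 54 were higher and 0 lower, where all tested genes gave 4.66% and 4.18%. Their median fold was 0.15 (deposited -0.067), against 0.0022 (deposited -0.19) for all tested genes. For 11 of the 54 every treated library was above every vehicle library, which was so for 0.841% of all tested genes. The list was drawn up with earlier results of this series known, so these counts describe it. With vehicle libraries 3 and 5 alone, 12 of the 54 were higher at an unadjusted p below 0.05. In that fit 793 of all 17592 tested genes had such a p, in either direction. In deposited TPM 8 of the 54 were higher and 4 lower, where 0.438% and 26.4% of all tested genes were. Averaged over the list, log2(scaled TPM + 1) was 4.08 to 4.18 in the vehicle libraries, 4.26 to 4.39 in the treated and 4.15 to 4.30 in the Wild-type libraries. The vehicle and treated ranges did not overlap, and the Wild-type range overlapped both.

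**Figure D3:**
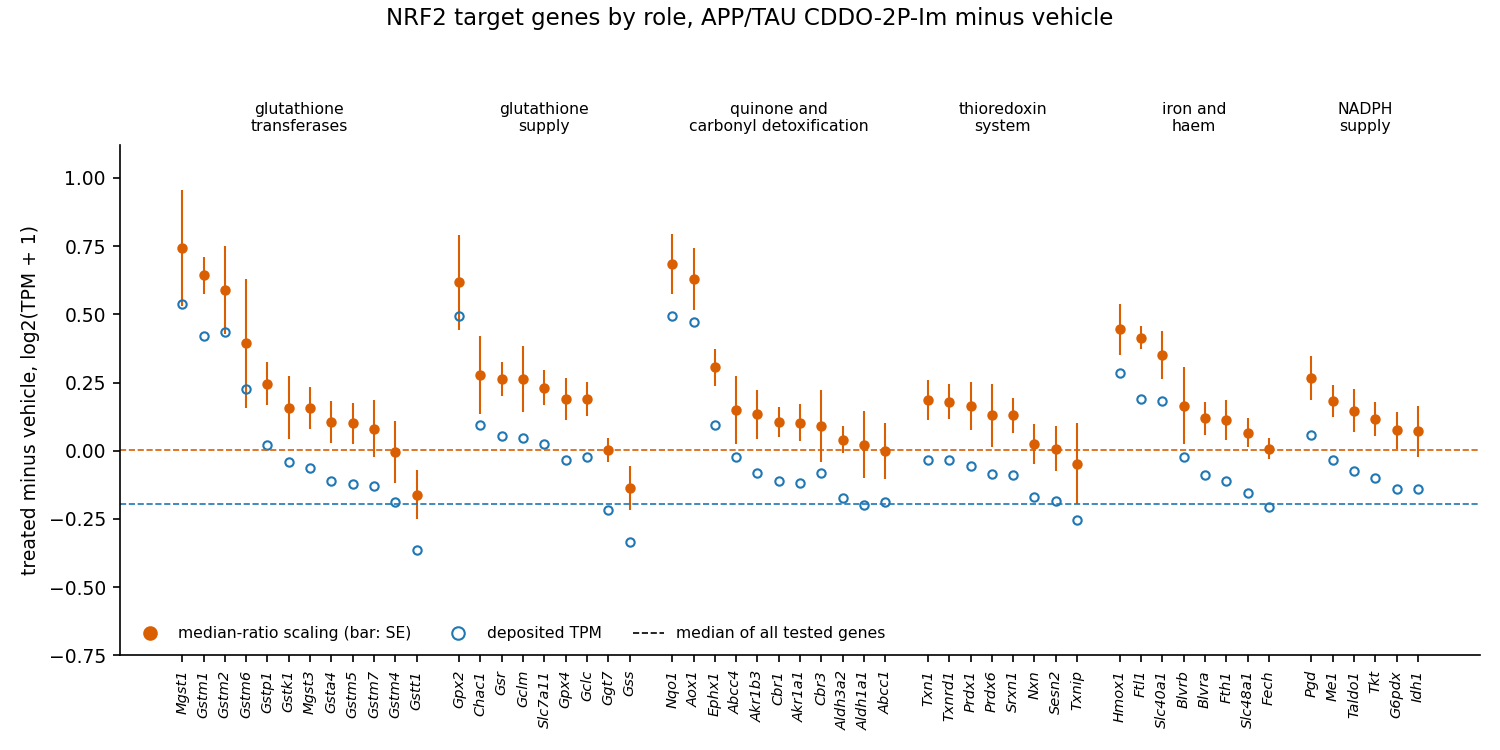
Fold of each tested NRF2 target gene, treated minus vehicle, in log2(TPM + 1), by role and ranked within role; filled points with SE bars are scaled values, open points deposited values, and dashed lines the medians of all tested genes (0.0022 scaled, -0.19 deposited). Most filled points lie above their line in each role, with Mgst1, Gstm1, Nqo1 and Aox1 among the highest.

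Among the glutathione transferases, 4 of 12 tested members were higher at an unadjusted p below 0.05, against 4.66% of all tested genes. Mgst1, a membrane-bound transferase that also reduces lipid peroxides, was at 7.51, 10.2, 6.75, 9.59 and 11.5 scaled TPM in vehicle and 15.8, 12.9, 15.1, 13.8 and 22.0 in treated libraries. These groups did not overlap, and the Wild-type libraries (7.87, 19.5, 12.1, 16.2 and 9.60) spread over both. Its fold of 0.74 ± 0.21 had the largest standard error of the 4 and a limma adjusted p of 0.460. Gstm2, next to Gstm1 in the cluster, was at 2.14 ± 0.608 scaled TPM in vehicle and 3.70 ± 0.579 in treated libraries (fold 0.59 ± 0.16). Gstp1, an abundant cytosolic transferase, was at 144 ± 13.3 and 171 ± 11.9 (fold 0.25 ± 0.079). The adjusted p was 0.446 for Gstm2 and 0.478 for Gstp1 (limma), so neither passed.

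Glutathione supply had 6 of 9 tested members higher at an unadjusted p below 0.05, the largest share of the 6 roles. At such a p 4.66% of all tested genes were higher. Slc7a11, the transporter that brings cystine into the cell, was at 9.70, 10.1, 10.3, 10.0 and 9.80 scaled TPM in vehicle and 12.0, 13.2, 12.0, 11.8 and 10.7 in treated libraries. The highest vehicle library was below the lowest treated library. Gsr, which regenerates reduced glutathione, was at 11.3, 11.2, 10.9, 11.3 and 11.1 in vehicle and 11.9, 12.7, 14.4, 15.1 and 14.0 in treated libraries, again without overlap. Their folds were 0.23 ± 0.063 and 0.26 ± 0.063, with limma adjusted p of 0.446 and 0.343. Gclc and Gclm, the catalytic and modifier subunits of the enzyme that starts glutathione synthesis, had folds of 0.19 ± 0.061 and 0.26 ± 0.12. The fold of Gclc was -0.024 in deposited TPM. Gpx2, a glutathione peroxidase found mainly in epithelia, was near the filter at 0.968 ± 0.329 scaled TPM in vehicle and 2.06 ± 0.678 in treated libraries.

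Quinone and carbonyl detoxification had 3 of 11 tested members higher at an unadjusted p below 0.05, and these had no overlap between groups. Over all tested genes 4.66% were higher at such a p, and 0.841% had every treated above every vehicle library. Nqo1 was at 4.59, 3.55, 3.40, 4.30 and 4.41 scaled TPM in vehicle and 7.09, 6.03, 7.05, 6.48 and 9.01 in treated libraries. The mean went from 4.05 ± 0.538 to 7.13 ± 1.14 (SD, n = 5), with 4.35 ± 0.659 in Wild-type libraries. Its fold of 0.68 ± 0.11 had the third smallest p of all tested genes, and a limma adjusted p of 0.112. Aox1, an aldehyde oxidase, was at 2.51, 1.63, 1.27, 2.14 and 1.44 in vehicle and 2.98, 3.93, 3.10, 3.49 and 2.97 in treated libraries (fold 0.63 ± 0.11, limma adjusted p = 0.185). Vehicle library 1 held the most Aox1 of its group: without it the fold was 0.72 and the adjusted p 0.0440, and against vehicle libraries 3 and 5 alone these were 0.85 and 0.0354. Ephx1, an epoxide hydrolase, was at 15.2 ± 0.947 scaled TPM in vehicle and 19.0 ± 1.61 in treated libraries (fold 0.31 ± 0.067, limma adjusted p = 0.315).

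Iron and haem genes had 3 of 8 tested members higher at an unadjusted p below 0.05, against 4.66% of all tested genes: Ftl1, Hmox1 and Slc40a1. Hmox1, the inducible enzyme that opens the haem ring, was at 1.91, 2.25, 1.91, 1.70 and 2.06 scaled TPM in vehicle and 3.15, 3.40, 2.80, 2.46 and 3.41 in treated libraries. Ferroportin, the iron exporter encoded by Slc40a1, was at 2.42, 2.60, 2.53, 2.82 and 2.16 in vehicle and 2.92, 3.81, 3.43, 3.95 and 3.25 in treated libraries. Neither gene's groups overlapped, and neither passed the test, with folds of 0.44 ± 0.092 and 0.35 ± 0.088 and limma adjusted p of 0.270 and 0.355. The ferritin heavy chain Fth1, the partner of Ftl1, was at 1279 ± 61.4 scaled TPM in vehicle and 1385 ± 96.2 in treated libraries, a fold of 0.11 ± 0.074 (deposited -0.11).

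The highest folds of the thioredoxin system and NADPH supply were smaller than those of the other 4 roles, while their medians of 0.13 and 0.13 were near the 0.15 of all 54 targets. Txn1 and Txnrd1, thioredoxin and its reductase, had folds of 0.19 ± 0.075 and 0.18 ± 0.065, and were 2 of 8 tested members with an unadjusted p below 0.05. Srxn1, which repairs over-oxidised peroxiredoxins and is a common NRF2 readout, was at 29.0, 29.4, 28.3, 28.4 and 31.7 scaled TPM in vehicle and 32.1, 37.3, 29.3, 30.2 and 32.5 in treated libraries. These groups overlapped, and the fold was 0.13 ± 0.064 (deposited -0.088), or 0.078 without treated library 2. In NADPH supply 2 of 6 had an unadjusted p below 0.05: Pgd of the pentose phosphate pathway, with a fold of 0.27 ± 0.081, and malic enzyme Me1, with 0.18 ± 0.058. Beside the counts of these roles, 4.66% of all tested genes were higher at such a p. Pgd was at 11.7, 13.1, 12.1, 10.6 and 13.7 scaled TPM in vehicle and 16.0, 14.3, 14.3, 13.9 and 16.1 in treated libraries, without overlap.

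The 11 NRF2 targets under the filter were Gstm3, Gsta1, Gsta2, Gsta3, Mgst2, Ggt1, Akr1b8, Ptgr1, Ugt1a6a, Ces1d and Ces2g, several of which are known as liver or gut genes. Osgin1, a stress-response gene listed with the regulators of the pathway and singled out after its values were seen, averaged 0.385 TPM over the table. With no filter on low values its scaled TPM was 0.273, 0, 0, 0.236 and 0.184 in vehicle and 1.07, 0.851, 0.985, 0.918 and 0.699 in treated libraries. These values are listed with exact zeros, which may be failed estimates at such low levels. The fold was 0.75 ± 0.099 and limma's adjusted p 0.0297 in that fit.

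Regulators of the pathway itself were also measured. Of 10 tested KEAP1-NRF2 regulators, 0 had an unadjusted p below 0.05 after scaling, with a median fold of -0.012; at the background of 1556 in 17592 tested genes, a count of 0 in so few is no result about them. In deposited TPM 6 of the 10 were lower at an unadjusted p below 0.05, with a median fold of -0.23, where 26.4% of all genes were lower. Nfe2l2 was at 8.73, 9.65, 8.69, 8.67 and 7.90 scaled TPM in vehicle and 9.35, 8.56, 9.53, 8.02 and 8.87 in treated libraries, a fold of 0.021 ± 0.071 (deposited -0.18). Keap1 was at 18.5 ± 1.24 and 19.9 ± 1.25 scaled TPM, a fold of 0.10 ± 0.049 (deposited -0.11). NRF2 is regulated mainly through its protein, which was not measured here.

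The promoters of the targets were read from RefSeq (GRCm38.p6), as windows from 250 bases before to 50 bases after each annotated start. Of the 54 tested NRF2 targets, 44 had a window, and 13 of these held the core of the antioxidant response element, TGACNNNGC, on either strand (29.5%). Among all 27025 genes with a window 14.0% held it, and among all 32851 windows 12.4%. These were not filtered on level, whereas the 44 passed the filter and were listed as known NRF2 targets, so the shares are not of like sets. A core whose free bases are TCA also spells the AP-1 letters TGANTCA, bound by FOS and JUN proteins. The following stretches show the core (capitals, here on the opposite strand) in 4 targets from the glutathione transferases (Mgst1), glutathione supply (Gclm) and the thioredoxin system (Txnrd1 and Prdx1), with 20 bases of the plus strand on each side.
Mgst1, chr6:138140451-138140499: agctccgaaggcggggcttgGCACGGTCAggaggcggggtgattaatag
Gclm, chr3:122245403-122245451: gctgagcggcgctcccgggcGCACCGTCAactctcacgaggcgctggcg
Txnrd1, chr10:82859094-82859142: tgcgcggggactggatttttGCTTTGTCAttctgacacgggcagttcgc
Prdx1, chr4:116685446-116685494: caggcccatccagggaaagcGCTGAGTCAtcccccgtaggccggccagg
The core began 56, 134, 92 and 133 bases before the annotated start of its window in Mgst1, Gclm, Txnrd1 and Prdx1. For Txnrd1 that start lies inside the gene, which begins at chr10:82833951 in GENCODE. Prdx1, a peroxiredoxin, had a fold of 0.16 ± 0.088. Ftl1, Gstm1 and Nqo1 have no match in their windows, which says only that these letters are not there, since functional elements are often farther upstream.

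Immediate early genes were lower in treated libraries. Of 20 tested members, 10 were lower and 0 higher at an unadjusted p below 0.05, against 4.18% lower over all tested genes, and none passed the adjusted test. The median fold was -0.28 (deposited -0.49). In deposited TPM 17 of the 20 were lower at an unadjusted p below 0.05, where 26.4% of all genes were. Against vehicle libraries 3 and 5 alone 6 of the 20 were lower, where 793 of all 17592 tested genes had such a p in either direction. For Egr1, Arc and Dusp6 every treated library was below every vehicle library, which was so for 0.898% of all tested genes.

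Arc, a synaptic protein that neurons make in response to activity, was at 71.8, 78.2, 84.4, 61.2 and 63.3 scaled TPM in vehicle and 50.3, 44.0, 59.5, 50.3 and 54.9 in treated libraries, with 87.2, 58.7, 63.5, 60.9 and 77.0 in Wild-type libraries. The highest treated library was below the lowest vehicle library and just above the lowest Wild-type library. Egr1, a zinc finger transcription factor, was at 62.5, 71.3, 80.9, 71.7 and 57.7 in vehicle and 53.9, 44.8, 53.4, 54.8 and 55.1 in treated libraries. Treated library 2 held the lowest values of Egr1, Egr2, Arc, Fos, Fosb, Nr4a1 and Junb. Dusp6, a phosphatase that switches off ERK signalling, was at 18.4, 20.1, 20.9, 16.1 and 17.2 in vehicle and 12.7, 14.3, 15.5, 15.2 and 14.9 in treated libraries. The folds were -0.46 ± 0.12 for Arc, -0.38 ± 0.090 for Egr1, -0.51 ± 0.13 for Egr2, -0.39 ± 0.11 for the orphan receptor gene Nr4a1 and -0.33 ± 0.078 for Dusp6. Their limma adjusted p lay between 0.343 and 0.460. Fos had a smaller fold of -0.22 ± 0.12: it was at 31.7, 31.0, 33.9, 27.8 and 31.9 in vehicle and 27.9, 17.3, 33.6, 28.7 and 28.2 in treated libraries, and the groups overlapped. Without treated library 2 the fold of Fos was -0.077. Srf, the serum response factor that drives several of these genes, was at 15.4, 14.1, 15.5, 15.0 and 14.2 in vehicle and 12.8, 13.3, 12.1, 12.5 and 13.1 in treated libraries, without overlap (fold -0.20 ± 0.042, limma adjusted p = 0.270). Fosb, Junb, Dusp6 and Srf were chosen after their values were seen.

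Markers of cortical neurons, where these genes are strongly expressed, were measured beside them. The 14 cortical excitatory neuron genes had a median fold of -0.086, with 1 of 14 above 0 and 0 of 14 at an unadjusted p below 0.05. Of all tested genes 51.0% were above 0. At an unadjusted p below 0.05, all tested genes gave 4.66% higher and 4.18% lower, so 0 of 14 is no result about the list. Their mean log2(scaled TPM + 1) was 4.73 to 5.00 in vehicle and 4.76 to 4.85 in treated libraries. Cerebellar neuron genes had a median fold of 0.080, with 14 of 17 above 0. Hippocampal neuron genes had a median of -0.075, with 2 of 11 above 0 and 2 lower at an unadjusted p below 0.05. For striatal neuron genes the median was -0.072, with 5 of 11 above 0 and 1 lower. The list mean of immediate early genes was 4.23 to 4.50 in vehicle and 3.93 to 4.18 in treated libraries. The part of tissue composition in the immediate early gene values was not tested, and fewer cells of a type cannot be told from less RNA per cell in bulk tissue.

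Clock genes had some lower members. Of 18 tested, 5 were lower and 0 higher at an unadjusted p below 0.05, against 4.18% lower over all tested genes, and none passed the adjusted test. In deposited TPM 12 of the 18 were lower, where 26.4% of all genes were. The median fold was -0.082 (deposited -0.30). The 5 were the period genes Per1, Per2 and Per3, Cry2 and the output factor Hlf. Per2 was at 11.5, 12.2, 11.4, 11.0 and 10.4 scaled TPM in vehicle and 9.23, 7.48, 10.2, 6.97 and 8.53 in treated libraries, without overlap, and the fold was -0.38 ± 0.15 with a limma adjusted p of 0.520. Per1 had a fold of -0.32 ± 0.14. The labels do not state the time of day of collection.

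The effect on some immediate early genes differed from that in the AppNLGF cohort. A fit of both cohorts with an interaction term, on 16418 genes, called 12 genes (0.0731%), 8 of them lower in APP/TAU (0.0487%), and 1890 at an unadjusted p below 0.05. Of the 20 immediate early genes 5 were called, all 5 lower in APP/TAU: Arc, Nr4a1, Junb, Egr2 and Fos. The median fold of the list was -0.28 in APP/TAU and 0.41 in AppNLGF. For Arc the AppNLGF fold was 1.24 ± 0.16 and the difference -1.70 ± 0.25 (limma adjusted p = 0.000874). For Nr4a1 they were 1.03 ± 0.13 and -1.43 ± 0.22 (adjusted p = 0.000993), and for Junb 1.02 ± 0.14 and -1.29 ± 0.23 (adjusted p = 0.00845). Egr2 differed by -1.47 ± 0.29 (adjusted p = 0.0272) and Fos by -1.35 ± 0.29 (adjusted p = 0.0498). Per1 was called as well, with a difference of -0.75 ± 0.14 (adjusted p = 0.0118). The other 6 called genes were Rpl34, Rpl26, Hist1h3e, Hist1h4f, Gm9754 and Gm38394, which were named after their values were seen. When each of the 10 APP/TAU libraries was left out in turn, 4 to 31 genes were called. Arc, Nr4a1 and Junb were called in all 10 of these fits, Per1 in 8, Egr2 in 6 and Fos in 2. Without treated library 2, which held the lowest values of Fos and Egr2, 6 genes were called and the adjusted p was 0.127 for Fos, 0.0859 for Egr2 and 0.0625 for Per1 (limma). The call of Egr2 was also lost without vehicle 1, 2 or 4, that of Per1 without vehicle 2, and that of Fos was kept only without vehicle 5 or treated library 3. The count was also 6 without vehicle 1, vehicle 4 or treated library 5. It was 4 without vehicle 2, 22 without vehicle 3 and 31 without vehicle 5.

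The levels behind these differences were unlike in the 2 vehicle groups. In AppNLGF libraries Arc ran from 21.9 to 71.0 (median 31.4) scaled TPM in the 11 vehicle libraries and from 47.0 to 116 (median 81.8) in the 13 treated libraries. The 4 Wild-type libraries of that cohort ran from 55.5 to 109 (median 80.5). AppNLGF vehicle libraries were thus mostly below their Wild-type libraries, whereas APP/TAU vehicle libraries (71.8 ± 9.82, SD, n = 5) were at the level of theirs (69.5 ± 12.2). Nr4a1 ran from 16.6 to 29.4 (median 19.6) in AppNLGF vehicle, 26.5 to 69.9 (median 44.7) in treated and 37.1 to 66.9 (median 54.4) in Wild-type libraries. The tables were normalized separately, so levels are compared within a table only. Genotype, age (11 and 6 months) and length of treatment (2 and 4 weeks) changed together between the cohorts and cannot be told apart.

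**Figure D4:**
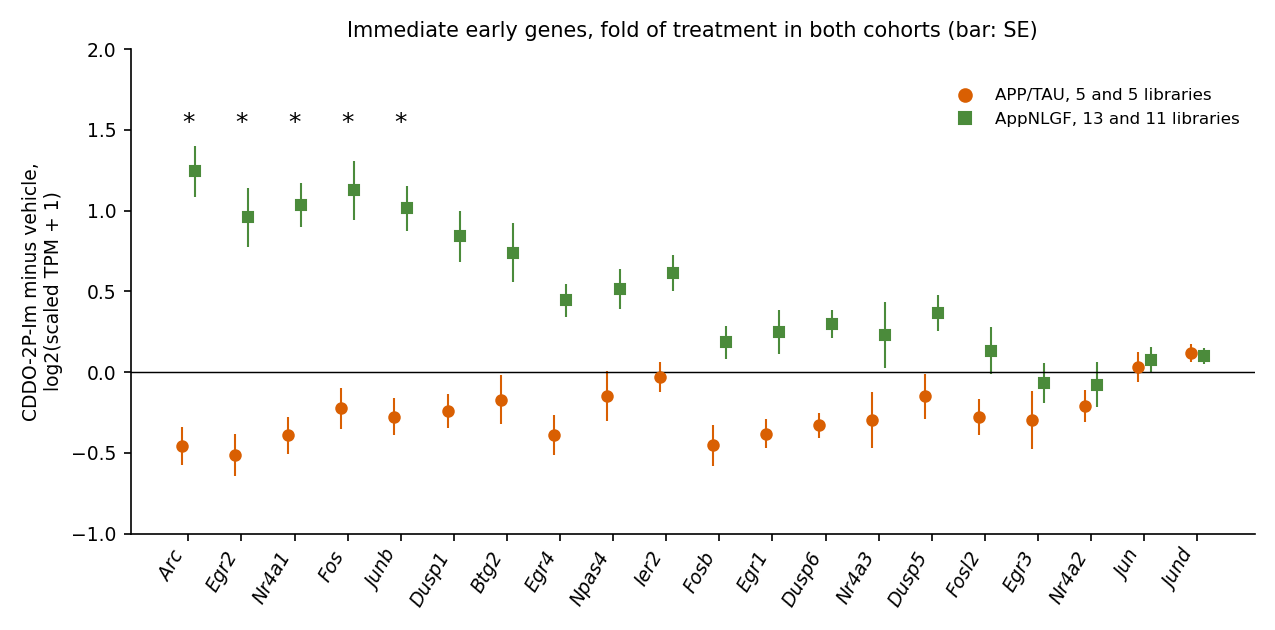
Fold of treatment, CDDO-2P-Im minus vehicle in log2(scaled TPM + 1), for 20 immediate early genes in APP/TAU (circles, 5 and 5 libraries) and AppNLGF mice (squares, 13 and 11 libraries), with SE bars. Asterisks mark the 5 genes whose difference between cohorts had an adjusted p below 0.05 in limma; Arc is -0.46 in APP/TAU and 1.24 in AppNLGF.

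For NRF2 targets no difference between the cohorts was called. Of 53 genes in the fit 0 passed, and 7 had an unadjusted p below 0.05, where 1890 of all 16418 genes had. The median difference, APP/TAU minus AppNLGF, was 0.099, and 10 of the 53 differences were below 0. The median fold was 0.15 in APP/TAU and 0.065 in AppNLGF. Gstm1 had a fold of 0.50 ± 0.065 in AppNLGF and differed by 0.14 ± 0.11, and Ftl1 had 0.27 ± 0.036 and differed by 0.15 ± 0.061. Nqo1 differed by 0.21 ± 0.17 and Aox1 by 0.11 ± 0.16. These 4 genes were each called in the AppNLGF cohort on its own (limma adjusted p of 0.000104, 0.000121, 0.0269 and 0.00523), where 41 genes were called higher and 7 lower. Hmox1 had a fold of 0.023 ± 0.085 in AppNLGF, and the difference of 0.42 ± 0.14 had an adjusted p of 0.228. A p that misses the threshold does not show that the responses were alike.

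Genes of the disease process in the APP/TAU model were measured beside these. App had a fold of 0.14 ± 0.080 (deposited -0.083), and treated library 5, with 1202 scaled TPM, was the highest of its group; without that library the fold was 0.055. Thy1 was also highest in that library, at 905. Mapt had a fold of -0.067 ± 0.080. Of the 20 tested genes for the amyloid precursor and its secretases 0 were higher and 1 lower at an unadjusted p below 0.05: Lrp1, a clearance receptor for amyloid and Apoe particles, with a fold of -0.14 ± 0.063. Bace1, the beta-secretase, was at 23.6 ± 0.970 scaled TPM in vehicle and 23.2 ± 1.69 in treated libraries. Of 19 tau kinases and partners 0 were higher and 2 lower, with the tau kinase gene Ttbk1 at -0.12 ± 0.046. All tested genes gave 4.66% higher and 4.18% lower. RNA does not give the amount of amyloid or tau protein.

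Microglial and reactive astrocyte genes gave counts near the background of 4.66% higher and 4.18% lower over all tested genes. Of 25 tested plaque-associated microglia genes 2 were higher and 1 lower at an unadjusted p below 0.05, of 18 homeostatic microglia genes 0, of 9 complement and phagocytic receptor genes 0, and of 16 reactive astrocyte genes 0. The lower gene was Cd68, a lysosomal protein of phagocytes, at 7.53, 5.05, 5.11, 5.33 and 4.56 scaled TPM in vehicle and 3.38, 4.95, 3.21, 5.61 and 3.05 in treated libraries. Vehicle library 1 was the highest, the groups overlapped, and the fold was -0.38 ± 0.15 (limma adjusted p = 0.514). Cd63, a tetraspanin of endosomes, was at 33.5, 31.3, 34.3, 36.0 and 36.3 in vehicle and 39.0, 41.5, 40.6, 41.2 and 41.5 in treated libraries, without overlap, and its fold was 0.25 ± 0.072. Trem2, the lipid receptor of plaque microglia, was at 7.52, 5.18, 5.90, 4.70 and 4.11 in vehicle and 5.80, 5.36, 5.78, 6.92 and 6.47 in treated libraries, and the groups overlapped. Gfap, the intermediate filament of astrocytes, ranged more widely in vehicle (153, 91.3, 78.3, 70.1 and 103) than in treated libraries (87.2, 119.8, 108, 85.1 and 122). Vehicle library 1 had the most Gfap, C4b, Serpina3n, Trem2 and Cd68 of its group. Of 20 astrocyte identity genes 3 were higher and 1 lower at an unadjusted p below 0.05. Their median fold was 0.050 (deposited -0.17), and 17 of the 20 were above 0, where 51.0% of all tested genes were. P2ry12, a receptor of resting microglia, was at 9.92 ± 0.769 and 10.7 ± 0.378 scaled TPM. Tyrobp, the adaptor of Trem2, is listed at 0 in 9 of the 10 libraries although microglia use it throughout, so its value is not read here.

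**Figure D5:**
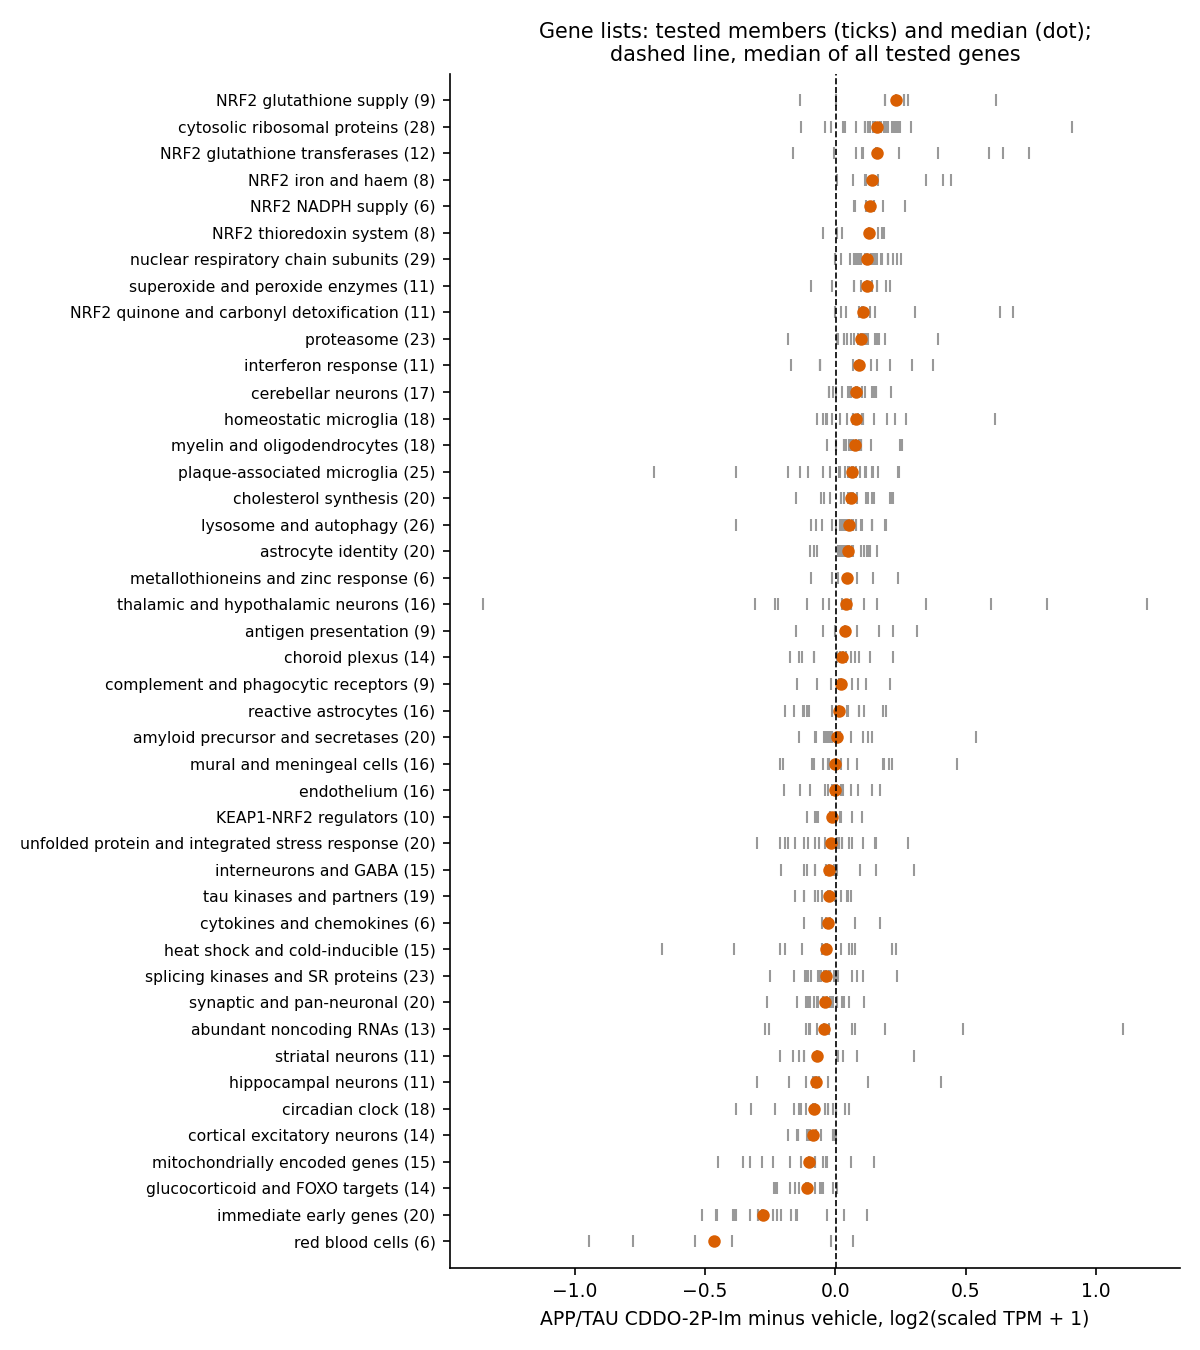
Folds of the tested members of each gene list (ticks) and the list's median (dot), treated minus vehicle in log2(scaled TPM + 1); the number of tested members is in brackets and the dashed line is the median of all tested genes. NRF2 roles and ribosomal, respiratory chain and proteasome genes lie to the right of the line, immediate early genes and the widely scattered red blood cell genes to the left.

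Genes for the machinery of protein and energy supply were higher as lists after scaling. Of 28 cytosolic ribosomal protein genes 13, of 29 nuclear respiratory chain genes 13, and of 23 proteasome genes 5 were higher at an unadjusted p below 0.05, with 0 lower in each and none called. All tested genes gave 4.66% higher and 4.18% lower. In deposited TPM 0 were higher in each list, and 2, 1 and 3 were lower, where 0.438% and 26.4% of all tested genes were. The list means of vehicle and treated libraries overlapped in each. The median folds of the lists were 0.16, 0.12 and 0.098, and in deposited TPM -0.061, -0.099 and -0.12. Psmb5, a catalytic subunit of the proteasome that NRF2 is known to induce, was at 55.3, 64.8, 59.6, 54.2 and 61.9 scaled TPM in vehicle and 75.4, 71.2, 81.9, 78.6 and 83.2 in treated libraries. The groups did not overlap, and the fold was 0.40 ± 0.066 with a limma adjusted p of 0.126. The Wild-type libraries were at 71.7 ± 6.44. Ndufa4, an electron transport subunit, had a fold of 0.20 ± 0.061, and Rpl38, a ribosomal protein, of 0.29 ± 0.086. Folds moved with transcript length over all genes: in the fifth of genes with the shortest transcripts the median scaled fold was 0.043 and 8.17% were higher at an unadjusted p below 0.05, and in the fifth with the longest these were -0.026 and 1.47%. Ribosomal and respiratory chain genes are known for short transcripts. The part of length in their values, or in those of the NRF2 targets, was not tested.

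Heat shock genes had single members with lower values. Hspa1b, an inducible chaperone, was at 6.30, 10.4, 6.90, 9.40 and 4.78 scaled TPM in vehicle and 4.70, 4.55, 4.63, 3.75 and 3.62 in treated libraries, without overlap (fold -0.67 ± 0.27, limma adjusted p = 0.532). Of 15 heat shock and cold-inducible genes 1 was higher and 1 lower at an unadjusted p below 0.05, and of 20 unfolded protein and integrated stress response genes 2 were higher and 1 lower. All tested genes gave 4.66% higher and 4.18% lower, so such small counts are no result about these lists. Beside the same shares of all genes, 3 of 20 synaptic genes were lower and 0 higher, with the NMDA receptor subunit gene Grin2b at -0.26 ± 0.10. Myelin genes had 2 of 18 higher, with Mog at 0.26 ± 0.11. The mitochondrially encoded genes, which took 5.85 ± 0.964% of TPM in vehicle and 4.78 ± 0.223% in treated libraries (p = 0.0714 in an exact permutation test), had a median scaled fold of -0.10, with 1 of 15 lower at an unadjusted p below 0.05. This was mt-Nd6, at -0.28 ± 0.074, a complex I subunit that lies on the other strand from most mitochondrial genes.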

How the data were processed

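Total RNA of mouse brain was made into libraries with a directional kit, per the labels' protocols, and the authors deposited TPM per gene, a length-corrected share of a fixed total, in 1 table per cohort. Salmon and GRCm38/mm10 are named in the submitters' processing notes, without versions. TPM keep no depth, so the depth per library is unknown and no counting interval is given. Gene rows held 84.9% to 90.8% of each library's total. Names for 51327 of 55804 gene rows came from a table of gene identifiers, and positions from GENCODE for GRCm38.

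Genes with a mean of at least 1 TPM were tested by limma 3.58.1 (R 4.3.3) with a trend on log2(TPM + 1), with 3 groups of 5 libraries, the contrast treated minus vehicle, Benjamini-Hochberg adjustment over all tested genes and a call at 0.05. The fit was run on deposited TPM and after median-ratio scaling. The script was tested on simulated data. Genes were named by a rule: the 5 lowest p-values of each scaling (fewer than 3 genes being called), without predicted and clone names; up to 4 members of each list, by p; and a short list of disease and pathway genes. Others are marked in the text, and Fth1, Thy1, Junb, the copies of Ftl1 and single rows in the closing section were also chosen after their values were seen. The comparison, the 44 gene lists (715 genes, 651 tested) and the rules were chosen with earlier results of these data known. A gene of these lists is not reported here and is not counted. Alternatives covered scaling, the filter, the pseudocount, moderation, library weights, a replicate block and leaving out libraries. Those with only vehicle libraries 3 and 5, with the share of the abundant RNA as a covariate, and with a library left out of the comparison of cohorts were chosen after seeing the data.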

Additional observations from a re-analysis of the deposited data

Results flagged for a closer look

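In the groups of 5, single libraries stood far from the other 4 in 5 of 78 combinations of a group with a gene or a library measure. The rule flags about 1 in 20 by chance where combinations are independent, and these share libraries. All 5 flags were of genes. App was at 1202 scaled TPM in treated library 5, where the next highest treated library had 930.2. Thy1 was highest in the same library. Mapt was at 179 scaled TPM in vehicle library 1, with 156 next. Cd68 was at 7.53 and Serpina3n at 14.8 scaled TPM in vehicle library 1, with 5.33 and 9.51 next in their group. Egr1 was at 44.8 scaled TPM in treated library 2, below the next lowest value of 53.4.

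The effect of treatment differed between the APP/TAU and AppNLGF cohorts for 6 named genes, by limma's interaction term with median-ratio scaling within each table. The difference, APP/TAU minus AppNLGF on the log2 scale, was -1.70 for Arc, -1.43 for Nr4a1, -1.29 for Junb, -1.47 for Egr2, -1.35 for Fos and -0.75 for the clock gene Per1. The 5 immediate early genes had folds below 0 in APP/TAU and above 0 in AppNLGF, and so had Per1. The adjusted p was 0.0498 for Fos, next to the threshold, and between 0.000874 and 0.0272 for the other 5. When 1 APP/TAU library was left out, Fos was called in 2 of 10 fits, Egr2 in 6, Per1 in 8 and the other 3 genes in all 10.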

How the results depend on the processing

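With median-ratio scaling, Ftl1 and Gstm1 were called with the other pseudocount, the stricter filter, robust moderation, library weights, only the 2 groups, quantile normalization and rescaling, and with each library left out (2 to 4 genes called). Dgkq and Timm8b were added without vehicle 5, Aox1 without vehicle 1, and the unnamed row ENSMUSG00002076470 without treated library 5. No filter on low values added Osgin1. With the share of the abundant RNA as a covariate 1 gene was called (Ftl1), and with only vehicle 3 and 5 the 3 calls were Ftl1, Aox1 and Gm22020. Deposited TPM gave 0 calls, 0 to 2 when 1 library was left out, 1 with only vehicle 3 and 5 (Gm22020), and 2 after median-ratio scaling, quantile normalization or rescaling without abundant genes. With library weights it gave 7298 calls, 7199 of them lower; the cause was not tested. The median fold of all genes in deposited TPM, -0.19 (-0.23 to -0.15 when 1 library was left out), was -0.036 with only vehicle 3 and 5, 0.017 with the share covariate, 0.0022 after median-ratio scaling, -0.0027 after quantile normalization and -0.019 after rescaling. The 20 higher NRF2 targets (18 to 22 when 1 library was left out) were 12 with only vehicle 3 and 5 and 8 in deposited TPM. The 10 lower immediate early genes (7 to 11) were 6 and 17. The difference in the share of the abundant RNA ran from 5.91 to 9.32 percentage points when 1 library was left out, with an exact permutation p of 0.0238 without vehicle 3 (9.16) or vehicle 5. The difference between cohorts gave 22 calls in deposited TPM against 12, and 4 to 31 when 1 APP/TAU library was left out, the latter without vehicle 5.

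Of 787 values of 36 single genes under alternatives, 763 kept their direction and side of the threshold and 18 changed sign, none of them of a called gene. In deposited TPM the folds were -0.024 for Gclc, -0.088 for Srxn1, -0.035 for Txnrd1, -0.18 for Nfe2l2, -0.11 for Keap1, -0.083 for App, -0.16 for Apoe, -0.049 for Trem2, -0.11 for Gfap and -0.097 for P2ry12. Serpina3n was at 0.066 with only vehicle 3 and 5. When 1 library was left out, Nfe2l2 ran from -0.011 to 0.054, Mapt from -0.13 to 0.0040, Bace1 from -0.055 to 0.0076, Tmem119 from -0.12 to 0.045 and Serpina3n from -0.23 to 0.018.

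Same-numbered libraries of the 2 groups did not deviate together (correlations -0.058 to 0.064 over 5 pairs, 2 of 10 libraries closest to their own number). With a replicate block 2 genes were called after scaling, the same 2, and 0 in deposited TPM. A sex term could not be fitted, since no library had Xist above 10 TPM. TPM give no depth, so precision rests on 5 libraries a group.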

Other observations

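Histone genes were higher in the treated libraries as a family, an observation made after their values were seen. Of 57 tested genes with Hist symbols, 51 had a scaled fold above 0, and 15 were higher and 0 lower at an unadjusted p below 0.05, where all tested genes gave 4.66% and 4.18%. The median fold was 0.23, and 0.075 in deposited TPM. Hist1h3e, a replication-type histone gene, was at 12.4, 9.92, 14.3, 9.97 and 16.1 scaled TPM in vehicle and 20.0, 17.2, 19.0, 17.4 and 19.4 in treated libraries, and Hist1h4f at 48.0, 34.5, 66.3, 38.3 and 65.8 and 74.3, 74.1, 71.9, 71.9 and 83.0. Neither gene's groups overlapped. Transcripts of such genes lack a poly(A) tail, and the most abundant RNA moved between the same libraries. The parts of library composition and of transcript length were not tested.

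Rpph1, the RNA of ribonuclease P, was at 8288 ± 3156 scaled TPM in vehicle and 16870.1 ± 2280.5 in treated libraries, without overlap (fold 1.10 ± 0.26, limma adjusted p = 0.343). Wild-type libraries were at 14907 ± 4449. An unnamed row, ENSMUSG00002076470, is listed at 0 in all vehicle and Wild-type libraries and at 85.3, 38.9, 121, 56.7 and 0 scaled TPM in treated libraries 1 to 5. This row passed the filter on low values through treated libraries only. Dgkq, a diacylglycerol kinase gene, is listed at 0 in vehicle libraries 1 to 4, at 2.87 scaled TPM in vehicle library 5 and at 3.38, 2.27, 2.61, 2.71 and 1.68 in the treated libraries. The exact zeros of Dgkq and of the unnamed row may be failed estimates. Pomc, a hormone precursor of the hypothalamus and pituitary, was at 0.890, 1.13, 1.67, 1.65 and 48.2 scaled TPM in treated libraries 1 to 5 and at 1.26, 0.750, 0.812, 0.601 and 0.949 in vehicle libraries. Only treated library 5 was high. Haemoglobin varied between libraries of both groups: Hbb-bs was at 31.0, 20.1, 149, 95.5 and 10.5 scaled TPM in vehicle and 32.7, 38.8, 83.7, 5.59 and 9.18 in treated libraries.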
